A study of Mus musculus with 8 samples.

Results

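The BCL2 family decides at the outer mitochondrial membrane whether a cell enters apoptosis, and 10 of its genes were followed in the bone marrow of mice with little or no Gfi1. The genes were listed by symbol and mapped to Ensembl identifiers, and all 10 were found among the 41214 genes of the count files. They fall into 3 classes by function. The guardians Bcl2, Bcl2l1 (which encodes BCL-XL) and Mcl1 hold cells alive, the effectors Bax and Bak1 form the pores that release cytochrome c, and the BH3-only genes Bbc3 (PUMA), Pmaip1 (NOXA), Bcl2l11 (BIM), Bid and Bmf relay stress signals to both other classes. In blood-forming tissue, stem cells and myeloid cells lean on MCL1, maturing red cell precursors on BCL-XL and mature lymphocytes on BCL2. Bbc3 and Pmaip1 are known targets of the tumor suppressor p53, and GFI1 is a DNA-binding repressor of transcription.

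RNA-seq was done on total bone marrow of 8 C57Bl6 mice, 2 in each of 4 groups. The young KD mice (39 and 42 days old) and the sick KD mice (187 and 78 days) carry a human GFI1 cDNA in the Gfi1 locus together with a floxed neo cassette in antisense that lowers its expression. The young KO mice (48 and 44 days) and the old KO mice (158 and 101 days) lack Gfi1. The labels give leukemia for the sick KD mice and none for the other 6, whereas the study describes a myeloproliferative disease in sick KD animals. Thus every mouse in the data is a Gfi1 mutant, with no wild-type or full-level knock-in library among the 8, and genotype and disease change together when old KO is set against sick KD. Age and disease change together when sick KD is set against young KD. The 2 sick KD mice also differ widely in age. Mice are numbered 1 and 2 within each group in the order in which their ages are given here, and they are called by their labels.

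Gene counts per library ran from 26642067 to 42679114. Both sick KD libraries stood apart from the other 6: 42.0% and 38.8% of their uniquely aligned reads lay outside genes, against 26.9% to 33.8% elsewhere, and the mitochondrial genome took 1.42% and 1.16% of gene counts against 0.464% to 0.787%. The 2 mice of each group differed by more than counting noise (chi-square per degree of freedom 21.8 to 35.9). Cell type markers differed too. In sick KD the 8 erythroid markers summed to 430.5 and 543.4 CPM (gene counts scaled to the library total and edgeR's TMM factor) against 882.5 to 2184 CPM in the other libraries. The 8 B cell markers summed to 35.7 and 85.0 CPM in sick KD. Their sums were 112 and 163 CPM in old KO and 484 to 696 CPM in the young mice, so they were also low in old KO. The 6 stromal markers summed to between 26.2 and 27.5 CPM in sick KD against 110 to 218 CPM in the other libraries. The sums of myeloid lists moved the other way, except that macrophage markers summed to 214 to 245 CPM in sick KD against 255 to 470 CPM. Both sick KD libraries had the highest sums for monocyte markers (9830 to 10310 CPM against 6582 to 8884 CPM), neutrophil precursor markers (6284 to 7039 CPM against 4245 to 5494 CPM) and late neutrophil markers (4227 and 1562 CPM against 580 to 1469 CPM). Single markers did not all follow these sums. In sick KD against young KD, 5 of 10 late neutrophil markers had a positive log2 fold change, with a median of 0.07. For monocyte markers it was 7 of 8 with a median of 0.35, and for neutrophil precursor markers 5 of 5 with a median of 0.7. None of the measured markers was at 0 in any library, and the part of cell makeup in the levels of the 10 genes was not tested. In bulk marrow, fewer cells of a type and less RNA per cell cannot be told apart.

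Promoter sequence is shown for Mcl1, Bcl2l1 and Bbc3, the genes on which the comparisons turn. Each line holds the 250 bases before the 5′-most RefSeq start on build GRCm38.p6, read 5′ to 3′ along the gene's strand, and capitals mark every match, on either strand, to 1 of 5 motifs. These were the core AATC that is bound by GFI1, the E-box CACGTG of factors such as MYC, the cyclic AMP response element TGACGTCA, the GC box GGGCGG of SP1, and the CCAAT box. The first and last of these can overlap by sharing their letters. The windows lie at chr3:95658471-95658720 on the plus strand for Mcl1, at chr2:152831729-152831978 on the minus strand for Bcl2l1 and at chr7:16309333-16309582 on the plus strand for Bbc3. The annotated genes span chr3:95658788-95663176 for Mcl1 (ENSMUSG00000038612), chr2:152780668-152831728 for Bcl2l1 (ENSMUSG00000007659) and chr7:16308393-16318205 for Bbc3 (ENSMUSG00000002083) in GENCODE M21 on GRCm38, so the Bbc3 window lies inside the span that GENCODE gives the gene.
Mcl1: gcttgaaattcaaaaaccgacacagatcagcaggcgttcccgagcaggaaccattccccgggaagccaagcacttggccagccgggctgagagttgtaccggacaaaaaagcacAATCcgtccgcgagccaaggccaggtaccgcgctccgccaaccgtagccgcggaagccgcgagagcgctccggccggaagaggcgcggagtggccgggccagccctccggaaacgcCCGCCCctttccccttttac
Bcl2l1: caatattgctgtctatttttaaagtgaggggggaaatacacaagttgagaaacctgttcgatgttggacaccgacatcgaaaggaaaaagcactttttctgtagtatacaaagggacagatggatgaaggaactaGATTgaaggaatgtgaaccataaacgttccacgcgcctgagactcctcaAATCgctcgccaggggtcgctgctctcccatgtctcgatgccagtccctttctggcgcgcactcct
Bbc3: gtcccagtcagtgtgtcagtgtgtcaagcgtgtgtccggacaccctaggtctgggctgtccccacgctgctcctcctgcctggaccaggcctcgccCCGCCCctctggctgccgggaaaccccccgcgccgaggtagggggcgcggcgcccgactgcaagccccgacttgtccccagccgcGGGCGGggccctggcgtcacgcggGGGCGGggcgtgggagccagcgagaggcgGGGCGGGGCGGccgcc

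The 3 windows were unlike each other. Bbc3 had a GC content of 76.4%, with 5 GC boxes and 0 AATC. Mcl1 had 64.4%, with 1 GC box and 1 AATC, while Bcl2l1 had 47.6%, with 0 GC boxes and 2 AATC. The median GC content of all 32851 RefSeq windows was 52.4%. A GC box was present in 32.7% of those windows and AATC in 69.0%, so a single AATC is common. CCAAT was present in 33.8%, CACGTG in 6.0% and TGACGTCA in 1.5%, and none of these 3 motifs was in the 3 windows shown. Bcl2l1 and Bbc3 have 3 RefSeq starts each, and their other windows are not shown. The second Bbc3 window held 1 GC box, and the third 7 GC boxes, 1 CACGTG and 1 CCAAT. Both further Bcl2l1 windows held 0 GC boxes, with 2 AATC in the second and 1 in the third. Of the 10 genes, 9 had at least 1 RefSeq window, and Bcl2, whose window had a GC content of 74.8%, held 7 GC boxes. A letter match is a description of the sequence and says nothing about binding.

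To see which members dominate the marrow, CPM was divided by the kilobases of merged exons of each gene. Mcl1 was by far the most abundant, at 191.5 ± 41.5 CPM per kb (mean ± SD over the 8 mice). Its lowest library, at 122 CPM per kb, was above the highest library of Bak1, at 62.1 CPM per kb. Bak1 averaged 53.3, Bid 30.6, Bax 28.5, Bmf 15.5, Bcl2l1 9.24, Bcl2l11 6.27, Pmaip1 4.61, Bcl2 3.12 and Bbc3 2.36 CPM per kb. Within libraries, Mcl1 was above Bak1, Bak1 above Bid, Bax above Bmf, Bmf above Bcl2l1 and Pmaip1 above Bcl2 in 8 of 8. Bid was above Bax in 6 of 8, Bcl2l1 above Bcl2l11 in 6 of 8, Bcl2l11 above Pmaip1 in 7 of 8 and Bcl2 above Bbc3 in 7 of 8, so the order of these neighbors was not the same in every mouse. The order of the means was the same with the longest transcript as length and without TMM factors.

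The members varied to very different degrees among the mice. Bbc3 spanned 3.57-fold from its lowest to its highest library, Bcl2l1 2.24-fold, Pmaip1 2.18-fold and Mcl1 1.93-fold. Bcl2l11, in contrast, spanned 1.19-fold and Bax 1.22-fold. By the SD of log2(CPM + 1) over the 8 mice, Bbc3 stood at percentile 90.4 and Bcl2l1 at percentile 89.8 of 12021 genes with a mean of at least 1 CPM, whereas Bax stood at percentile 11.8 and Bcl2l11 at percentile 6.2. The genes that varied most thus included a pair of guardians and a pair of BH3-only genes, and none of the effectors. The plot of levels by mouse shows all 10.

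**Figure D1:**
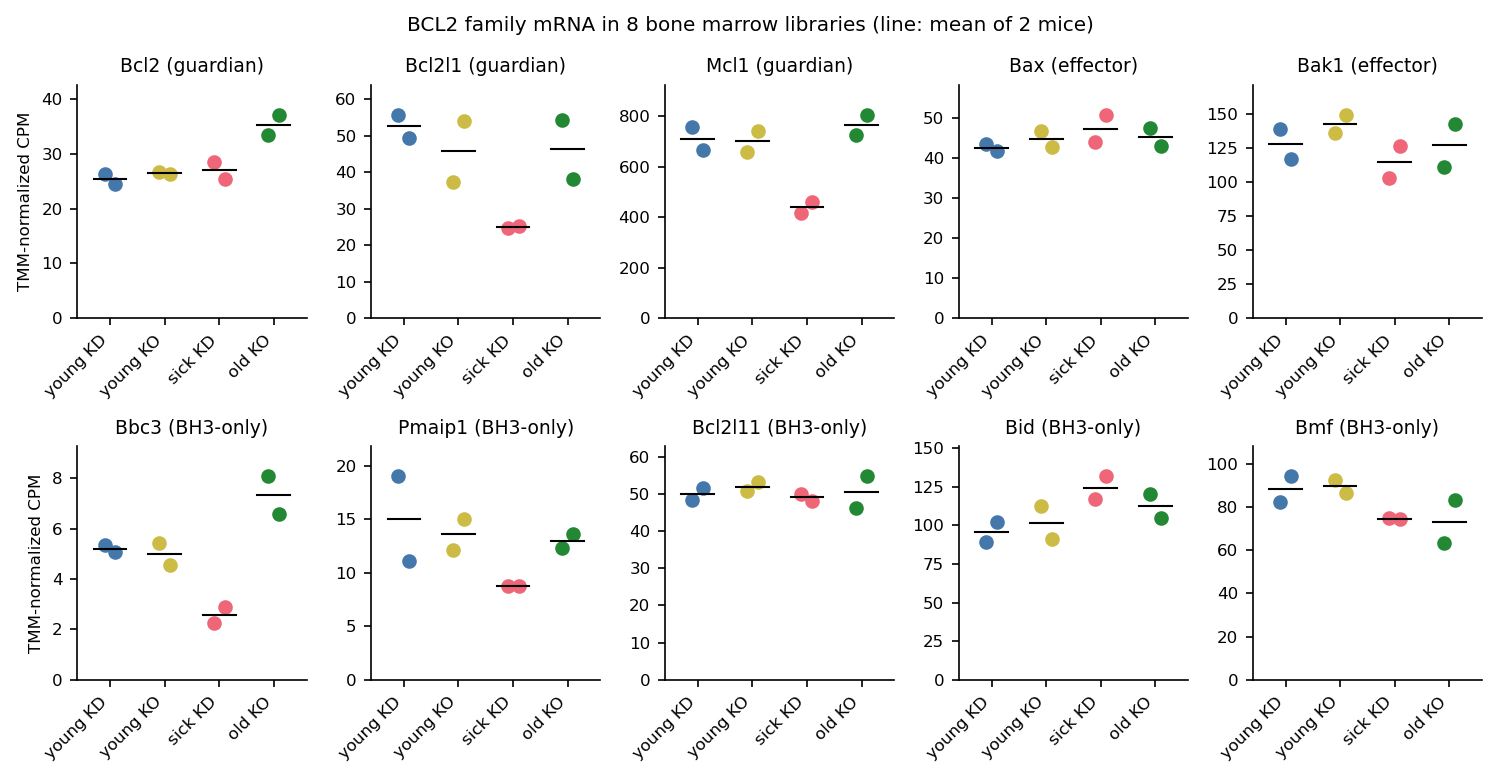
TMM-normalized CPM (y axis, from 0) of each member in each mouse (points), with the mean of the 2 mice as a line, with the 4 groups along the x axis. Both sick KD points lie below the other 6 for Bcl2l1, Mcl1, Bbc3 and Pmaip1, while Bax, Bak1 and Bcl2l11 in sick KD overlap old KO.

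Among the guardians, Mcl1 and Bcl2l1 were lower in sick KD mice than in old KO and young KD mice, and Bcl2 did not pass in any comparison. Mcl1, a short-lived protein on which myeloid cells depend, reached 418.5 and 459.5 CPM in sick KD, 726 and 806 CPM in old KO, 658 and 744 CPM in young KO and 759 and 665 CPM in young KD. The sick KD values were the lowest of the 8, and the other 3 groups overlapped. By the quasi-likelihood test of edgeR, adjusted by Benjamini-Hochberg over all genes tested, Mcl1 was 1.75-fold higher in old KO than in sick KD (log2 fold change 0.81, standard error 0.15, adjusted p = 0.0144). In sick KD it stood at 0.613 times its young KD level (log2 fold change -0.71, standard error 0.13, adjusted p = 0.0158 from edgeR). The first call was lost without sick KD mouse 1 or old KO mouse 2, and the second without young KD mouse 1. Each of these fits called a smaller share of all genes. With 1 mouse left out, the log2 fold changes ran from 0.72 to 0.89 and from -0.82 to -0.61.

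Bcl2l1, which keeps maturing red cell precursors and platelets alive, showed 24.8 and 25.4 CPM in sick KD, 54.4 and 38.1 CPM in old KO, 37.3 and 54.1 CPM in young KO and 55.6 and 49.4 CPM in young KD. Again the sick KD mice were the lowest, and they were far closer to each other than the mice of the KO groups were. The gene was 1.85-fold higher in old KO than in sick KD (log2 fold change 0.89, standard error 0.18, adjusted p = 0.0209 from edgeR). In sick KD it stood at 0.475 times its young KD level (log2 fold change -1.07, standard error 0.12, adjusted p = 0.00542 from edgeR). The call against old KO was lost without sick KD mouse 1 or old KO mouse 1, fits that called a smaller share of all genes. That difference ran from 0.62 to 1.11 on the log2 scale with 1 mouse left out. The difference from young KD, in contrast, passed in all 12 alternative analyses.

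Erythroid markers were low in sick KD, as Bcl2l1 was. All 8 of them passed edgeR's test as higher in old KO than in sick KD, where 9.93% of all genes passed in that direction. All 8 also passed as lower in sick KD than in young KD, where 11.4% of all genes passed as lower. Within every group, the mouse with the larger erythroid sum was also the mouse with more Bcl2l1: in old KO the sums were 2184 and 1255 CPM, in young KO 882.5 and 1643 CPM, in young KD 1851 and 950.7 CPM and in sick KD 430.5 and 543.4 CPM. In sick KD this order rested on nearly equal Bcl2l1 levels, 24.8 and 25.4 CPM. Over the 10 members and 10 marker lists, 6 of 100 pairs had the same order in all 4 groups and 16 had the opposite order in all 4. Among the 6 were Mcl1, Bak1 and Pmaip1 with the B cell list. With 2 mice per group, a shared order therefore does not single out Bcl2l1 and the erythroid list. The part of these cells in the level of Bcl2l1 was not tested.

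**Figure D2:**
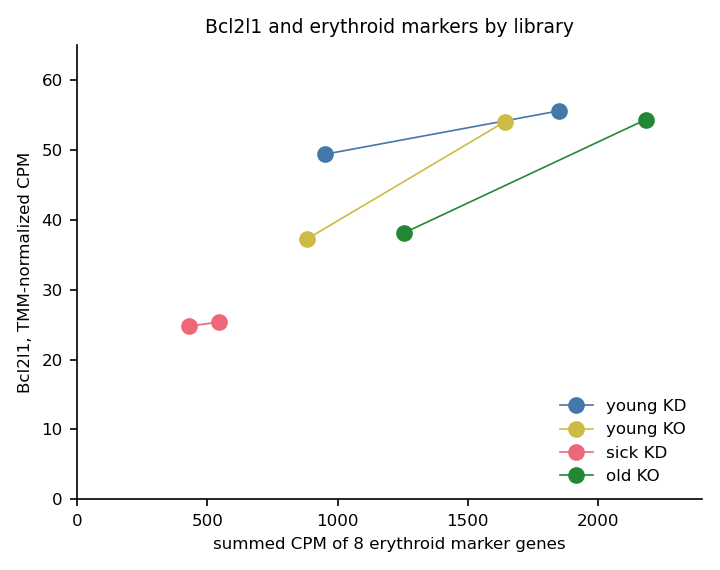
Bcl2l1 (y axis, TMM-normalized CPM, from 0) against the summed CPM of 8 erythroid marker genes (x axis, from 0), 1 point per mouse, with a line joining the 2 mice of a group. In each of the 4 groups the mouse further right is also the higher one, and the sick KD mice lie at 24.8 and 25.4 CPM of Bcl2l1.

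Bcl2, the guardian of mature lymphocytes, behaved differently from the other guardians. It showed 28.5 and 25.5 CPM in sick KD, 33.4 and 37.1 CPM in old KO, 26.7 and 26.2 CPM in young KO and 26.4 and 24.4 CPM in young KD. The old KO mice were the highest, while sick KD overlapped both young groups. The log2 fold change was 0.39 between old KO and sick KD (adjusted p = 0.0808 from edgeR) and 0.41 between old KO and young KO (adjusted p = 0.19 from edgeR, unadjusted 0.0055), and neither passed. It was 0.08 between sick KD and young KD, with a 95% interval from -0.22 to 0.38. Fitting all 8 mice together brought the difference between old KO and sick KD past the threshold (adjusted p = 0.0291 from edgeR). The Bcl2 exons share 558 bases with the antisense gene D630008O14Rik, and the strand setting of the counting is not given in the sources used here.

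The proportion between Bcl2 and Bcl2l1 was therefore highest in sick KD, with 1 old KO mouse close to it. Per length, the ratio of Bcl2 to Bcl2l1 was 0.576 and 0.503 in sick KD, 0.308 and 0.487 in old KO, 0.359 and 0.243 in young KO and 0.238 and 0.248 in young KD. The share of Mcl1 in the summed guardian level, in contrast, stayed between 93.2% and 95.02% in all 8 mice. Mcl1 and Bcl2l1 were low together in sick KD, with Mcl1 making up most of the sum.

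No effector passed the test in any comparison. Bax showed 43.8 and 50.6 CPM in sick KD, 47.5 and 42.9 CPM in old KO, 46.8 and 42.7 CPM in young KO and 43.3 and 41.6 CPM in young KD. Bak1 showed 103 and 127 CPM in sick KD, 111 and 143 CPM in old KO, 137 and 149 CPM in young KO and 139 and 117 CPM in young KD. For both genes, sick KD overlapped old KO. The log2 fold change between old KO and sick KD was -0.06 for Bax, with a 95% interval from -0.37 to 0.24, and 0.15 for Bak1, with an interval from -0.25 to 0.55. Between sick KD and young KD it was 0.15 for Bax, with an interval from -0.14 to 0.44, and -0.16 for Bak1, with an interval from -0.52 to 0.19. Exons of Bak1 overlap 437 bases of the antisense gene Ggnbp1, and the strand setting of the counting is not given. Exons of Bax overlap 192 bases of Gm45808, a gene on the same strand that is not in the count files.

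Among the BH3-only genes, Bbc3 differed most. Bbc3 encodes PUMA, a strong killer that binds every guardian, and it had the lowest mean level of the 10. Its level was 2.26 and 2.88 CPM in sick KD, 8.07 and 6.56 CPM in old KO, 5.43 and 4.54 CPM in young KO and 5.33 and 5.07 CPM in young KD. These values rest on 56 and 81 counts in sick KD and on 149 to 257 counts in the other libraries. The groups fell into 3 levels without overlap, with sick KD lowest, both young groups in the middle and old KO highest. Bbc3 was 2.84-fold higher in old KO than in sick KD (log2 fold change 1.51, standard error 0.26, adjusted p = 0.0125 from edgeR), and this difference passed in all 12 alternative analyses, where it lay between 1.33 and 1.69 on the log2 scale.

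Against young KD, Bbc3 in sick KD stood at 0.493 times the level (log2 fold change -1.02, standard error 0.24, adjusted p = 0.0323 from edgeR). This call was lost without sick KD mouse 1 or young KD mouse 1, fits that called a smaller share of all genes. With 1 mouse left out, the log2 fold change ran from -1.21 to -0.86. Between old KO and young KO the log2 fold change was 0.55, with an unadjusted p of 0.0375 and an adjusted p of 0.506 from edgeR, so the step from the middle level to the highest did not pass.

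Pmaip1, whose product NOXA mainly neutralizes MCL1, showed 8.72 and 8.78 CPM in sick KD, 12.4 and 13.6 CPM in old KO, 12.1 and 15.1 CPM in young KO and 19.0 and 11.1 CPM in young KD. Sick KD was again lowest, but the young KD mice were far apart. The log2 fold change was 0.57 between old KO and sick KD (95% interval 0.15 to 0.99, adjusted p = 0.0671 from edgeR) and -0.79 between sick KD and young KD (95% interval -1.43 to -0.15, adjusted p = 0.0792 from edgeR), and neither passed. The second passed in 4 of 12 alternative analyses, among them DESeq2's Wald test (adjusted p = 0.0366). It turned on the young KD mice, with -0.35 without mouse 1 (adjusted p = 0.509 from edgeR) and -1.15 without mouse 2 (adjusted p = 0.00346).

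The 3 remaining BH3-only genes did not pass in any comparison. Bid, which links death receptors to mitochondria, showed 117 and 132 CPM in sick KD, 120 and 105 CPM in old KO, 112 and 91.3 CPM in young KO and 89.3 and 102.5 CPM in young KD. The sick KD mice lay above both young KD mice and overlapped old KO. The log2 fold change between sick KD and young KD was 0.37 (95% interval 0.08 to 0.66, adjusted p = 0.0767 from edgeR), which DESeq2's Wald test called (adjusted p = 0.0468). Exons of Bid overlap 628 bases of Bcl2l13, a relative on the other strand.

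Bcl2l11, the BIM gene that removes lymphocytes and aging myeloid cells, showed 50.03 and 48.1 CPM in sick KD, 46.1 and 54.7 CPM in old KO, 50.7 and 53.1 CPM in young KO and 48.5 and 51.6 CPM in young KD. The groups overlapped closely. Its log2 fold change was 0.04 between old KO and sick KD, with a 95% interval from -0.26 to 0.34, and -0.04 between sick KD and young KD, with an interval from -0.29 to 0.22. Bmf, a sensor of lost attachment and of growth factor withdrawal, showed 74.9 and 74.4 CPM in sick KD, 63.2 and 83.5 CPM in old KO, 92.7 and 86.6 CPM in young KO and 82.5 and 94.3 CPM in young KD. Sick KD lay below both young groups and within the spread of old KO. The log2 fold change of Bmf was -0.02 between old KO and sick KD and -0.25 between sick KD and young KD (adjusted p = 0.152 from edgeR).

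Read over the whole list, old KO against sick KD gave 3 members higher, 0 lower and 7 that did not pass. Of all 14470 genes tested, 18.1% passed in either direction and 9.93% were higher in old KO. The median log2 fold change was 0.27 over the members and 0 over all genes, with a median of 0.80 for the guardians, 0.04 for the effectors and 0.04 for the BH3-only genes. Sick KD against young KD gave the same 3 members, all lower, where 20.9% of 14656 genes passed and 11.4% were lower. These comparisons share the sick KD libraries, so the recurrence of Mcl1, Bcl2l1 and Bbc3 is not independent. Both sick KD libraries lay below the other 6 for 4 of the 10 members, against 23.7% of 15102 genes, and above the other 6 for 0 of 10, against 24.6% of genes.

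A trend in GC content and merged exon length across libraries bears on these counts. With that trend removed, the split of called genes turned from 1437 higher and 1189 lower to 1556 higher and 2325 lower in old KO against sick KD, with a median shift of -0.08 on the log2 scale over all genes. In sick KD against young KD it turned from 1385 higher and 1678 lower to 3044 higher and 1819 lower. Mcl1, Bcl2l1 and Bbc3 kept their directions and passed, with log2 fold changes of 0.67, 0.61 and 1.33 in old KO against sick KD. There, Pmaip1 and Bid passed as well, Pmaip1 with 0.67 (adjusted p = 0.0272 from edgeR) and Bid with -0.34 (adjusted p = 0.0397).

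**Figure D3:**
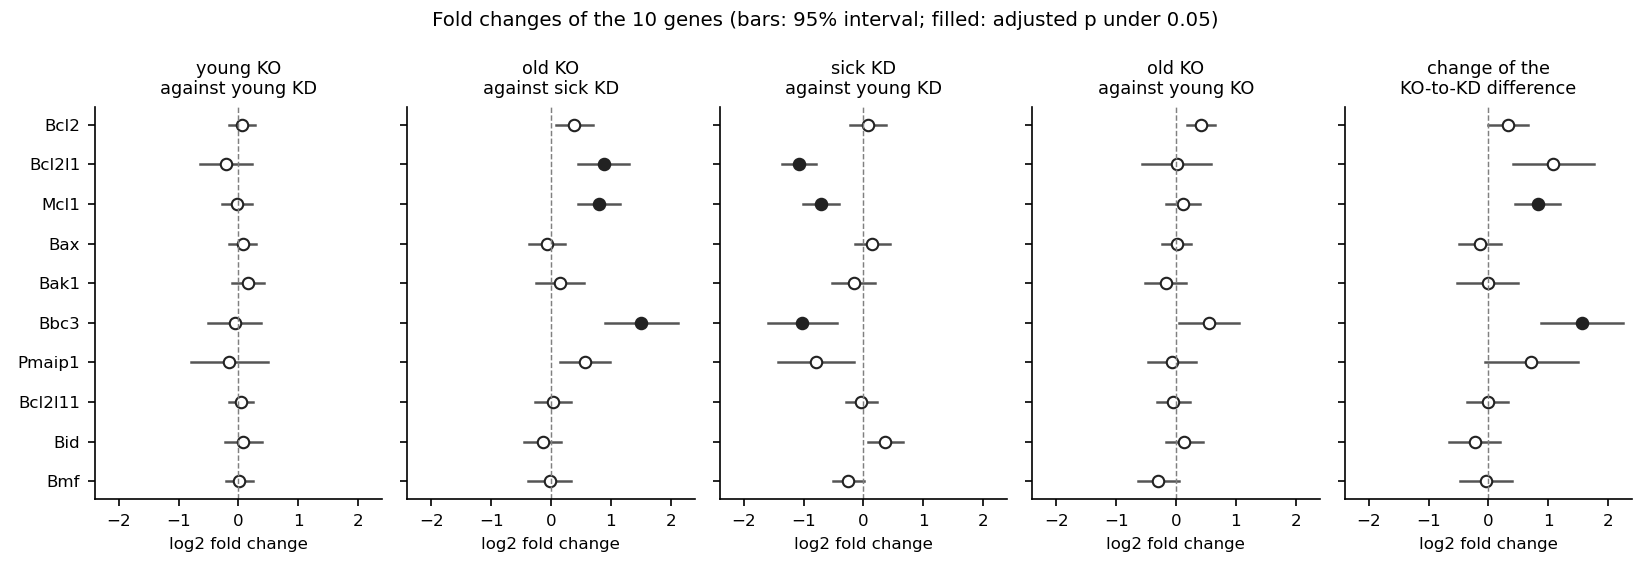
Log2 fold change (x axis) of each member (rows, ordered guardians, effectors, BH3-only) in the 5 comparisons (panels), with bars for the 95% interval and filled points for an adjusted p under 0.05 from edgeR. Filled points are Bcl2l1, Mcl1 and Bbc3 in the 2 panels between sick KD and another group, and Mcl1 and Bbc3 in the last panel, which shows how the KO-to-KD difference changed from young to older or sick mice.

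No member passed in the comparisons that leave out sick KD. Between young KO and young KD, 0 of 10 members passed and 0 had an unadjusted p under 0.05, in a comparison in which 6 of 14839 genes, or 0.0404%, passed and 394 had an unadjusted p under 0.05. The log2 fold changes ran from -0.21 for Bcl2l1, with a 95% interval from -0.65 to 0.23, to 0.16 for Bak1, with an interval from -0.11 to 0.42. For Bbc3 the interval was -0.51 to 0.38 and for Mcl1 -0.28 to 0.23. DESeq2's Wald test called 26 genes here and 0 members. Between old KO and young KO, 0 of 10 members passed (edgeR), where 0.929% of 14847 genes passed. Bcl2 and Bbc3, both higher in old KO, were the 2 members with an unadjusted p under 0.05, as were 1315 of all genes. DESeq2 called 0 members there too.

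To ask whether the KO-to-KD difference itself changed between young mice and older or sick mice, the interaction was tested in all 8 mice. It passed for 2 of 10 members, both in the direction of a larger KO excess in the older or sick mice, where 7.43% of 15102 genes passed and 4.32% in that direction. Bbc3 changed by 1.56 on the log2 scale (standard error 0.30, adjusted p = 0.0273 from edgeR) and Mcl1 by 0.83 (standard error 0.17, adjusted p = 0.0308). Bcl2l1 changed by 1.09 (95% interval 0.41 to 1.76, adjusted p = 0.0606 from edgeR) and Pmaip1 by 0.72 (95% interval -0.06 to 1.5), and neither passed. Neither Bbc3 nor Mcl1 passed without sick KD mouse 1, old KO mouse 1, either young KO mouse or young KD mouse 1. Each of these fits called a smaller share of all genes. With 1 mouse left out, the change ran from 1.40 to 1.74 for Bbc3 and from 0.73 to 0.92 for Mcl1. Age and disease change together in this contrast and cannot be told apart.

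Summed by class, the guardians of sick KD marrow lay below those of the other 6 mice, while the effector and BH3-only sums of sick KD overlapped those of old KO and young KD. Per length, the guardians summed to 130.9 and 142.7 CPM per kb in sick KD and to between 203.5 and 248.1 CPM per kb in the other 6 mice. The effectors ran from 70.5 to 89.1 CPM per kb and the BH3-only genes from 56.3 to 62.6 CPM per kb over all 8 mice, and the effector sums of sick KD, at 70.5 and 84.9 CPM per kb, lay below both young KO mice, at 86.4 and 89.1 CPM per kb. Such sums weigh Mcl1, Bak1 and Bid most and say nothing about protein.

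The guardian to effector ratio was 1.86 and 1.68 in sick KD, 2.98 and 2.86 in old KO, 2.36 and 2.61 in young KO and 2.78 and 2.78 in young KD. The guardian to BH3-only ratio was 2.27 and 2.31 in sick KD, 3.799 and 4.11 in old KO, 3.25 and 4.11 in young KO and 4.21 and 3.49 in young KD. Sick KD was lowest in both. The smallest two-sided p that an exact permutation test gives for groups of 2 is 0.333, so the ratios are given without one.

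**Figure D4:**
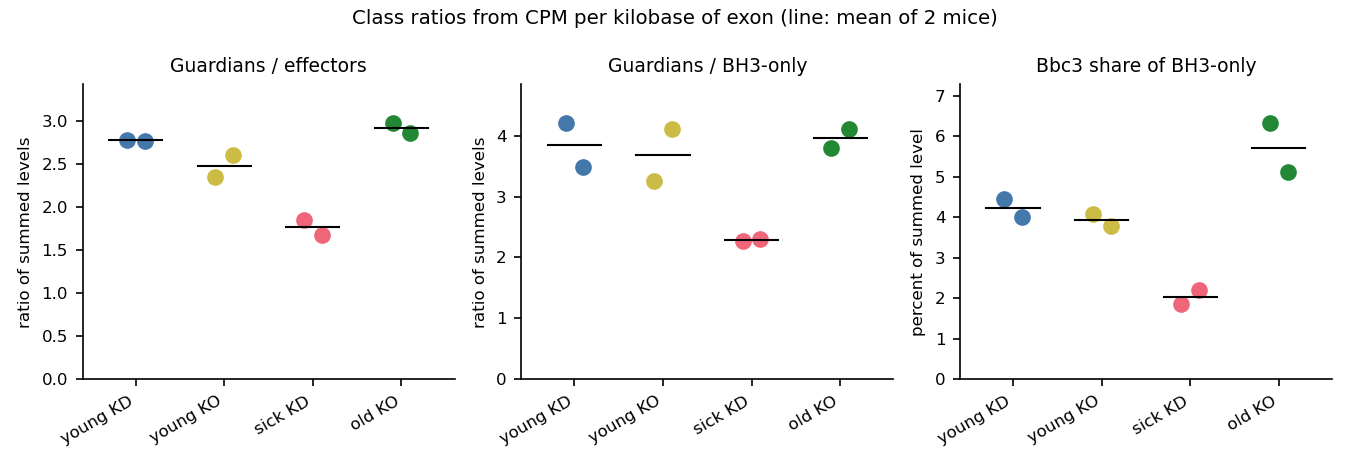
Ratio of the summed guardian level to the summed effector level (left) and to the summed BH3-only level (middle), and the share of Bbc3 in the BH3-only sum in percent (right), from CPM per kb of exon, by mouse (points) with the mean of 2 mice (line). The sick KD mice are lowest in all 3 panels, at 1.86 and 1.68, at 2.27 and 2.31, and at 1.85% and 2.19%.

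Within the BH3-only class the share of Bbc3 was lowest in sick KD, while the class sums overlapped. Bbc3 made up 1.85% and 2.19% of the class in sick KD, 6.34% and 5.12% in old KO, 4.08% and 3.79% in young KO and 4.46% and 3.997% in young KD. Bid, the largest share, took 57.1% and 60.0% in sick KD, 56.5% and 49.0% in old KO and between 44.6% and 50.6% in the young mice. The ratio of Mcl1 to Bbc3 was 115 and 99.1 in sick KD, 55.9 and 76.3 in old KO, 75.3 and 102 in young KO and 88.5 and 81.6 in young KD, so sick KD lay above old KO and young KD and overlapped young KO.

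Next, 16 other relatives of the family were read from the same tests. In old KO against sick KD, where 18.1% of all genes passed, 11 of them were tested and 0 passed in edgeR, with 2 at an unadjusted p under 0.05. Among all 14470 genes, 5177 had an unadjusted p under 0.05 there. In sick KD against young KD, where 20.9% of all genes passed, 12 were tested and 1 was lower, Bok, an effector relative, with 4 to 54 counts per library and -2.15 on the log2 scale (edgeR adjusted p = 0.0396). Bok is named after its values were seen. It was also low in old KO, at 0.388 and 0.306 CPM, against 0.323 and 0.142 CPM in sick KD and 0.694 to 1.34 CPM in young KD. The copies of Bcl2a1 are nearly identical, and their counts are uncertain.

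Of 23 genes acting upstream or downstream of the family, 3 were higher and 1 was lower in old KO than in sick KD, and 19 did not pass, a share near the 18.1% of all genes that passed. Ddit3 (CHOP) and Atf4, both of the stress response that can induce BH3-only genes, had log2 fold changes of 0.997 (adjusted p = 0.0279) and 0.57 (adjusted p = 0.024 from edgeR). Foxo3, a transcription factor that activates Bcl2l11 and Bbc3, had 0.45 (adjusted p = 0.0423 from edgeR). Huwe1, a ubiquitin ligase that marks MCL1 for destruction, was the gene that was lower, with 640 and 547 CPM in sick KD, 382 and 390 CPM in old KO and a difference of -0.62 on the log2 scale (edgeR adjusted p = 0.0301).

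Huwe1 lay between 361.5 and 428.8 CPM in the 6 other libraries, below both sick KD libraries. The genes of this list were read from the main fit alone, without removal of the GC and length trend. Other regulators of MCL1 on the list, named after their values were seen, did not pass in old KO against sick KD. The log2 fold change was -0.42 for Usp9x, which removes ubiquitin from MCL1 and so stabilizes it (adjusted p = 0.159 from edgeR), and 0.01 for Fbxw7, which helps to degrade MCL1 (adjusted p = 0.942 from edgeR). In sick KD against young KD, Huwe1 was higher (log2 fold change 0.52, adjusted p = 0.0332 from edgeR) and 3 genes of the list were lower, Ddit3, Atf4 and, named after its values were seen, Casp9, where 20.9% of all genes passed. Over the 23 genes the median log2 fold change was 0.05 in old KO against sick KD and -0.01 in sick KD against young KD. In young KO against young KD, 0 of the 23 passed in edgeR and 0 had an unadjusted p under 0.05. Among all 14839 genes there, 0.0404% passed and 394 had an unadjusted p under 0.05. For the interaction 0 of the 23 passed in edgeR, where 7.43% of all genes passed. There, 5 of the 23 had an unadjusted p under 0.05, as did 4185 of all 15102 genes.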

How the data were processed

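Total bone marrow RNA of 8 mice was sequenced as stranded poly(A) libraries. The authors aligned reads to mm10 with TopHat 2.0.10, used SAMtools, and assigned reads to Ensembl genes by HTSeq. The deposited values are raw counts, 1 file per mouse, with no normalization. The Ensembl release and the strand setting are not given in the sources used here. HTSeq's tallies of unassigned reads were left out of library sizes and tests, and reads outside genes made up 26.9% to 42.0% of uniquely aligned reads. Symbols, loci and exon lengths came from GENCODE M21 on GRCm38, in which 40340 of 41214 identifiers have a symbol.

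The counts entered edgeR 4.0.16 under R 4.3.3 (TMM, filterByExpr by group, quasi-likelihood test, Benjamini-Hochberg over all genes tested, adjusted p under 0.05), on the 4 mice of each pair of groups, and on all 8 mice for the interaction (old KO minus sick KD) minus (young KO minus young KD). Standard errors were taken as |log2 fold change| over the square root of F, and 95% intervals use the t quantile of the fit's degrees of freedom. CPM per kb is TMM-normalized CPM divided by kilobases of merged exons. Libraries of 26642067 to 42679114 counts leave the spread between 2 mice as the main limit on precision. Nothing in the labels says whether mice shared a litter, and no replicate number is shared between groups. The script was tested on simulated data before use.

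Alternatives were DESeq2 1.42.0, other size factors, no count filter, at least 10 counts in every mouse, all 8 mice in 1 fit, no mitochondrial genome and no 50 most counted genes, removal of each library's GC and length trend by splines with 5 degrees of freedom, and leaving out each mouse. The named genes were all 10 members, genes of the other family and pathway lists past the threshold in old KO against sick KD or young KO against young KD, and the 3 genes closest in profile to each member that passed any test. Likeness was the root mean square difference of gene-centred log2(CPM + 1) over 8 libraries, among genes with a mean of at least 1 CPM and leaving out sex-linked, immunoglobulin and T-cell receptor genes. The members and lists were chosen with earlier results of these data known. RefSeq promoter windows were searched for 5 motifs on both strands. Protein sequences and the study's RNA-seq of sorted cells were not used here. A gene of the pathway list is not reported here, and the counts of that list leave it out.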

Additional observations from a re-analysis of the deposited data

Results flagged for a closer look

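The KO-to-KD difference of Mcl1 and of Bbc3 was different in the older or sick mice from that in the young mice, by the interaction test of edgeR in all 8 mice. For Mcl1 the difference changed by 0.83 on the log2 scale (adjusted p = 0.0308 from edgeR), from -0.03 between young KO and young KD to 0.81 between old KO and sick KD. For Bbc3 it changed by 1.56 (adjusted p = 0.0273 from edgeR), from -0.06 to 1.51. Both old KO mice lay above both sick KD mice for each gene, and the young groups overlapped for Mcl1 and Bbc3. Over the 15 alternatives, 9 passed for Mcl1, with adjusted p between 6.05e-05 and 0.132, and 9 for Bbc3, with adjusted p between 0.000387 and 0.103. All the alternatives that did not pass left out 1 mouse.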

How the results depend on the processing

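Between old KO and sick KD, 3 members passed, and 5 with the GC and length trend removed, where the share of all genes called was 18.1% and 26.8%. Leaving out 1 mouse gave log2 fold changes of 0.72 to 0.89 for Mcl1, 0.62 to 1.11 for Bcl2l1 and 1.34 to 1.69 for Bbc3. Mcl1 and Bcl2l1 did not pass in all of these fits, most of which called a smaller share of all genes. Between sick KD and young KD, 3 members passed, 5 with DESeq2 (Pmaip1 and Bid added) and 5 with the trend removed (Bax and Bid added), where 20.9%, 23.2% and 33.2% of all genes were called. Here, leaving out 1 mouse gave -0.82 to -0.61 for Mcl1, -1.18 to -0.99 for Bcl2l1 and -1.21 to -0.86 for Bbc3. Mcl1 and Bbc3 did not pass in all of these fits, and again most called a smaller share of all genes. For the interaction 2 members passed, and 4 without a count filter (Bcl2l1 and Pmaip1 added), where 7.43% and 12.7% of all genes were called. Mcl1 did not pass without old KO mouse 2, nor Bbc3 without young KD mouse 2. Both fits called a smaller share of all genes. The main calls were among those made by each added setting named here that kept all mice. Where a mouse was left out, the lone mouse of its group was assumed to vary like the others. Of 630 values of single members under the alternatives, 597 kept their direction or had no call to lose and stayed on their side of the threshold, 19 no longer passed, 14 newly passed and 0 called values turned. Another 49 uncalled values, counted among the 597, differed in sign. The cause of these changes was not tested, except that leaving out mice or adding genes changes the number tested. Over all genes, young KO against young KD gave 6 calls with edgeR, 26 with DESeq2 and 119 without a count filter, and old KO against young KO gave 138, 383 and 796. The interaction gave 1122, with 2141 when the trend was removed (724 higher and 1417 lower, against 653 and 469, with a median over all genes of -0.11 on the log2 scale) and 106 without young KD mouse 1.

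No paired analysis was possible because the labels share no replicate number between groups. The spread between 2 mice per group sets the width of the intervals, and Bbc3, with 56 and 81 counts in sick KD, is the member most limited by depth.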

Other observations

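For each member that passed a test, the genes whose profile over the 8 libraries was closest to it were listed, so the likeness itself is what chose them. Mcl1 was closest to Hoxb4, with a root mean square difference of 0.038 on the log2 scale, then to Ube2z (0.056) and Zfp740 (0.059), among 12021 genes. Hoxb4, a homeobox gene active in blood stem cells, showed 5.61 and 6.51 CPM in sick KD, 10.7 and 11.5 CPM in old KO, 9.29 and 10.7 CPM in young KO and 10.7 and 8.93 CPM in young KD. Ube2z, a ubiquitin-conjugating enzyme gene, showed 56.3 and 64.7 CPM in sick KD and 90.1 to 101 CPM in the other 6 libraries.

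Bcl2l1 was closest to Ppm1l (0.074), a protein phosphatase gene, then to Nrip3 (0.095) and Nhlrc4 (0.11). Nrip3 lay at only 0.283 to 2.01 CPM and Nhlrc4 at 0.323 to 1.80 CPM. At such levels the 1 CPM added before the log2 narrows differences, and both genes spanned a wider fold range in CPM than Bcl2l1. Ppm1l showed 5.05 and 5.41 CPM in sick KD, 12.0 and 9.65 CPM in old KO, 8.499 and 12.3 CPM in young KO and 13.2 and 10.5 CPM in young KD. Bbc3 was closest to Sdsl (0.085), Arl4c (0.092) and Vamp5 (0.095). Arl4c, a small GTPase gene, showed 39.1 and 43.4 CPM in sick KD, 87.5 and 81.8 CPM in old KO and 60.3 to 66.4 CPM in the young mice, without overlap between those 3 levels.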
